A study of Homo sapiens with 6 samples.

Results

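The CEACAM genes, a family of cell surface adhesion molecules of the immunoglobulin superfamily, were followed in LS180, an established line of human colorectal adenocarcinoma cells. Members were all genes whose symbol on the array platform is CEACAM followed by a number. This gave 11 genes with 1 probe set each, out of 14812 named genes. CEACAM18, the one further member on the gene table, has no listed probe set and is not analysed here. CEACAM7 had drawn attention to the family because it was the highest gene of the table with CTNNB1 siRNA, and CEACAM7 was thus chosen by its own measured difference. Its values are given as a description, and the question was whether the other 10 genes shared its direction.

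Total RNA was measured on Affymetrix arrays. The knockdown groups had been transfected with an siRNA for CTNNB1, the gene of beta-catenin, through which Wnt signals reach the nucleus, an siRNA for the transcription factor gene MYC, or an siRNA for the long non-coding RNA MYU. For the first of these the treatment tag reads CTNNB2, against CTNNB1 in the title and the source name. The 6 arrays formed 3 pairs, each of 1 knockdown array and 1 array of LS180 cells given control siRNA whose title names that knockdown. Controls are numbered 1 in the titles for the CTNNB1 and MYC knockdowns and 2 in that for MYU, so the first 2 pairs may share a control. The labels give no dose, time after transfection or number of siRNA sequences per target.

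Some CEACAM proteins bind each other across neighbouring cells through their outermost immunoglobulin domain, and several are bound by bacterial adhesins. CEACAM5, CEACAM6, CEACAM7 and CEACAM8 are held in the membrane by a glycosylphosphatidylinositol (GPI) anchor, while CEACAM1, CEACAM3, CEACAM4, CEACAM19, CEACAM20 and CEACAM21 are transmembrane proteins. In the colon, CEACAM1, CEACAM5, CEACAM6 and CEACAM7 lie on the apical surface of epithelial cells, and CEACAM7 marks the mature cells near the surface of the crypt. CEACAM3, CEACAM4 and CEACAM8 are granulocyte proteins, and CEACAM16 is a secreted protein of the inner ear.

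The sequences just before the transcription starts of 5 members are shown, because 4 of these genes were at least 2-fold higher with CTNNB1 siRNA and CEACAM4, which shares a motif with some of them, stood at -0.01. Each run gives the 250 bases before the start, 5′ to 3′ on the strand of the gene, from RefSeq on GRCh38.p14. Capitals mark matches to CTTTGA on either strand (read as TCAAAG) and to CACGTG, an E-box that MYC with MAX and USF factors can bind. CTTTGA is a form of the core bound by TCF/LEF factors, the DNA-binding partners of beta-catenin. Other forms of this core, such as CTTTGT, were not searched and are left in lower case. The windows are chr19:41688271-41688520 on the minus strand for CEACAM7, chr19:42528482-42528731 on the minus strand for CEACAM1, chr19:41755280-41755529 on the plus strand for CEACAM6, chr19:41708376-41708625 on the plus strand for CEACAM5 and chr19:41627075-41627324 on the minus strand for CEACAM4.
CEACAM7: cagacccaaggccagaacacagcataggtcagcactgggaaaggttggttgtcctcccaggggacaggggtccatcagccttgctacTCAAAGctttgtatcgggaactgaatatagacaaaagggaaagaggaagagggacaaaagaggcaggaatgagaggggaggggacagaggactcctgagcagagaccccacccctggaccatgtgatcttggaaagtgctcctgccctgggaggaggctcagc
CEACAM1: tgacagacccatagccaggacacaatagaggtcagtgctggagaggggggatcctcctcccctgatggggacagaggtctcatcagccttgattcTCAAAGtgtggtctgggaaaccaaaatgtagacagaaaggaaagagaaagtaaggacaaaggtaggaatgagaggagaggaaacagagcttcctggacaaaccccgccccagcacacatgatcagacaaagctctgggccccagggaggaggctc
CEACAM6: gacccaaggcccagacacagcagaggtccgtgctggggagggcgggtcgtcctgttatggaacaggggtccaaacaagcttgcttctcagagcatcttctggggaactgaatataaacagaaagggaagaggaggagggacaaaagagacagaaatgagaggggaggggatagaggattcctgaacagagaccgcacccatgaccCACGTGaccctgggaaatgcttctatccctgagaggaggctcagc
CEACAM5: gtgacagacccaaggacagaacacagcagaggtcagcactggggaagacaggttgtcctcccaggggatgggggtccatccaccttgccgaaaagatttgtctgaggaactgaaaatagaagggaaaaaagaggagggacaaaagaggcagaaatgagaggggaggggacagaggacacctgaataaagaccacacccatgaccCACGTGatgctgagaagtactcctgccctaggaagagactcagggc
CEACAM4: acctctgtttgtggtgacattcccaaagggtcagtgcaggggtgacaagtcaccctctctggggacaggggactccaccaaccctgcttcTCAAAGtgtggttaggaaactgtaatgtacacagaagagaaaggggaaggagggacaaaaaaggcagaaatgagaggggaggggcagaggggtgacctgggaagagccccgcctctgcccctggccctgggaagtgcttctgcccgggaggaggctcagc

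Differences are given as the knockdown array minus the control array of its pair on the log2 scale, the base being an assumption. The deposited values had been centred within each pair, so that the knockdown and control arrays mirror each other around 0 and no expression level is kept. Whether a member is abundant, low or absent in LS180 cells, and whether the cells carry the markers of colorectal epithelium, could therefore not be checked. Since a group is a single array, differences have no replicate check and no p-value, precision is limited by the number of arrays, and "higher" and "lower" describe the 6 arrays alone. Of the targeted transcripts, MYC differed by -1.18 in the MYC pair, -2.38 in the CTNNB1 pair and 0.04 in the MYU pair, and MYU, listed as VPS9D1-AS1, by -0.50 in its own pair, -0.24 in the MYC pair and -0.53 with CTNNB1 siRNA. The MYU transcript was thus no lower with its own siRNA than in the CTNNB1 pair. CTNNB1 has no listed probe set and is not analysed here. CEACAM genes are close paralogs, and how far the probes of one member also bind transcripts of another is not stated here, so the values of similar members may not be fully separate.

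With CTNNB1 siRNA, 4 of the 11 CEACAM genes were at least 2-fold higher than in the matched control and 0 were 2-fold lower. These were CEACAM7, CEACAM1, CEACAM6 and CEACAM5. Among all 14812 genes 2.8% were 2-fold higher and 4.14% were 2-fold lower in this pair. Without CEACAM7, 3 of 10 members were 2-fold higher, and the median of these 10 genes was 0.21, against 0 for all genes. The granulocyte members and the remaining members were within 2-fold. In RNA from whole cultures, more cells with a transcript cannot be told apart from more transcript per cell.

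CEACAM7 stood at 2.95 in the CTNNB1 siRNA array and -2.95 in its control, a difference of 5.90 or 59.6-fold. No other gene of the table had a higher difference in this pair. In the MYC siRNA array it stood at 1.498 and in its control at -1.498, a difference of 2.995 or 7.97-fold. This was also the highest of the 14812 genes. Because the CTNNB1 and MYC pairs may share a control, the high values in both pairs may not be independent. With MYU siRNA the values were 0.24 and -0.24, a difference of 0.48 or 1.40-fold. In this pair 98.6% of genes lay below it, and CEACAM7 was at rank 207 from the top. CEACAM7 was thus the highest member of its family in all 3 pairs.

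CEACAM1 carries inhibitory signalling motifs in its longer cytoplasmic tail and is the member with the widest tissue range. It stood at 1.70 with CTNNB1 siRNA and -1.70 in the matched control, a difference of 3.40 or 10.5-fold, at rank 11 of all genes. With MYC siRNA the array values were 0.05 and -0.05, a difference of 0.10. With MYU siRNA they were 0.03 and -0.03, a difference of 0.07. Its high value was therefore seen in the CTNNB1 pair only, in which it came second in the family, while in the MYC pair 77.4% of all genes lay below it.

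CEACAM6 and CEACAM5 followed. CEACAM5 is carcinoembryonic antigen, the serum marker used in the follow-up of colorectal cancer, and CEACAM6 is a shorter relative that many carcinomas make. CEACAM6 stood at 1.01 with CTNNB1 siRNA and -1.01 in its control, a difference of 2.01 or 4.03-fold at rank 60. CEACAM5 stood at 0.56 and -0.56, a difference of 1.11 or 2.16-fold at rank 334. Of the 4 called genes CEACAM5 was thus the nearest to the 2-fold limit. In the MYC pair CEACAM6 had a difference of 0.48, from array values of 0.24 and -0.24, and CEACAM5 one of 0.45, from 0.22 and -0.22. Neither reached 1.5-fold there, although 96.1% and 95.5% of all genes had lower differences than CEACAM6 and CEACAM5. With MYU siRNA the differences were 0.07 for CEACAM6 and -0.12 for CEACAM5, and CEACAM5 was the lowest of the family in that pair.

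**Figure D1:**
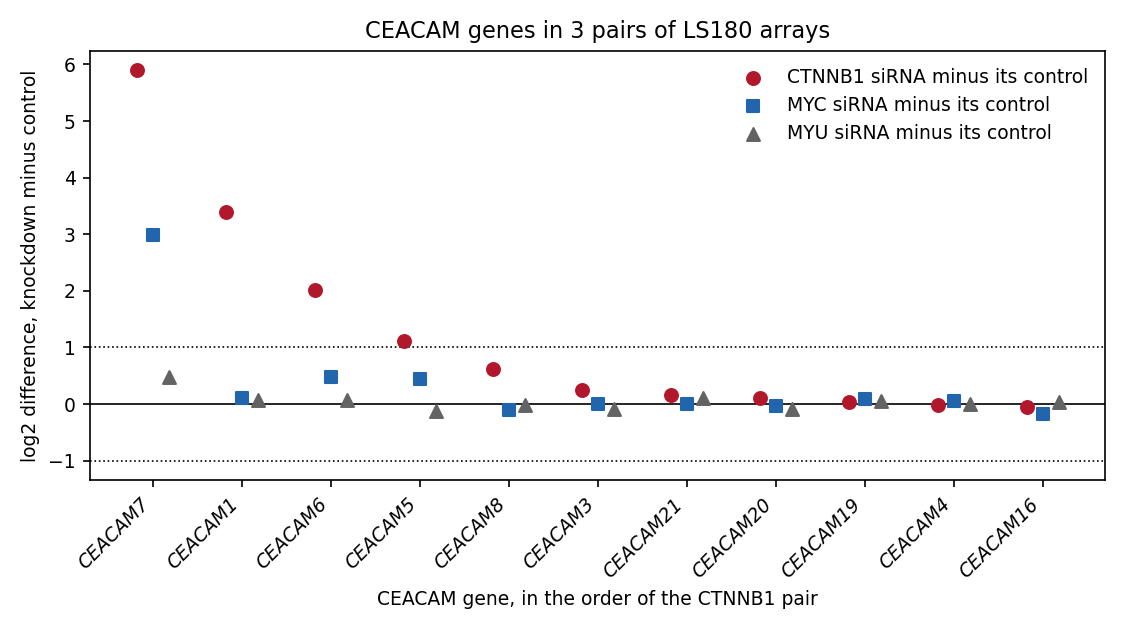
Log2 difference, knockdown minus matched control, of each of 11 CEACAM genes (x axis, in the order of the CTNNB1 pair) with CTNNB1 siRNA (circles), MYC siRNA (squares) and MYU siRNA (triangles); each point is 1 probe set in 1 pair of arrays, and dotted lines mark 2-fold. CEACAM7, CEACAM1, CEACAM6 and CEACAM5 lie above the upper line with CTNNB1 siRNA, CEACAM7 alone does so with MYC siRNA, and no member does with MYU siRNA.

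The 3 granulocyte members had smaller values. CEACAM8, a GPI-anchored protein of neutrophil granules and surface, stood at 0.31 with CTNNB1 siRNA and -0.31 in its control, a difference of 0.63 or 1.54-fold. Its differences were -0.10 with MYC siRNA and -0.01 with MYU siRNA. CEACAM8 was thus the fifth member above 1.5-fold in the CTNNB1 pair, where 6.44% of all genes were 1.5-fold higher. CEACAM3, a phagocytic receptor of granulocytes for bacteria that bind CEACAM proteins, had differences of 0.26 with CTNNB1 siRNA, 0 with MYC siRNA and -0.09 with MYU siRNA. CEACAM4, which like CEACAM3 carries an activating signalling motif, had differences of -0.01, 0.05 and 0. Of 17 measured granulocyte and leukocyte markers, 0 were 2-fold apart in any pair, with medians of 0.03, 0.00 and 0.07. Among all genes 6.94%, 0.857% and 0.155% were 2-fold apart in the CTNNB1, MYC and MYU pairs. With these shares 0 of 17 is no result about the markers. In the CTNNB1 pair the 4 markers farthest from 0 were LCN2 (0.84), OLFM4 (-0.59), S100A9 (-0.27) and LYZ (-0.23), and LCN2, OLFM4 and LYZ are also made by epithelial cells. In the MYC pair OLFM4 was farthest from 0, at -0.26, and in the MYU pair LYZ (0.74) and OLFM4 (0.66) were. All 6 arrays are of LS180 cells, an established line. How far the CEACAM8 probes also bind transcripts of similar members is not stated, so its value may not be of CEACAM8 alone. The cause of this value was not tested.

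The other 4 members lay near 0 throughout. CEACAM16 had differences of -0.05, -0.18 and 0.04, CEACAM19 of 0.04, 0.09 and 0.05, CEACAM20 of 0.11, -0.03 and -0.08, and CEACAM21 of 0.16, 0 and 0.11, each given with CTNNB1, MYC and MYU siRNA in this order. CEACAM20 is known from mouse intestine, where its protein lies on the microvilli. Over the 7 members that stayed within 2-fold in all pairs, values ran between -0.05 and 0.63 with CTNNB1 siRNA, between -0.18 and 0.09 with MYC siRNA and between -0.09 and 0.11 with MYU siRNA. Scatter between probe sets of the same gene was taken from the 651 genes with several probe sets. The median standard deviation was 0.10 for CTNNB1 siRNA, 0.08 for MYC siRNA and 0.06 for MYU siRNA. This scatter lies within 1 pair of arrays and does not stand for separate samples. Of these 7 members 3 lay within 0.1 of 0 with CTNNB1 siRNA, 5 with MYC siRNA and 6 with MYU siRNA. No CEACAM gene has a second listed probe set, so this scatter is not known for the family itself.

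With MYC siRNA, CEACAM7 alone of 11 members was 2-fold higher and 0 were lower, where 0.412% of all genes were 2-fold higher and 0.446% lower. The median of the other 10 members was 0.03, and 0 of them were 1.5-fold higher, against 2.15% of all genes. With a share this low, 0 of 10 is no result about the other members. With MYU siRNA 0 of 11 members were 2-fold apart in either direction, where 0.0608% of all genes were higher and 0.0945% lower. In that pair 0 were 1.5-fold higher, against 0.668% of all genes. Counts of 0 of 11 at such shares are no result about the family. The family median was 0.04 in that pair and 8 of 11 members lay within 0.1 of 0, as did 57.1% of all genes.

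**Figure D2:**
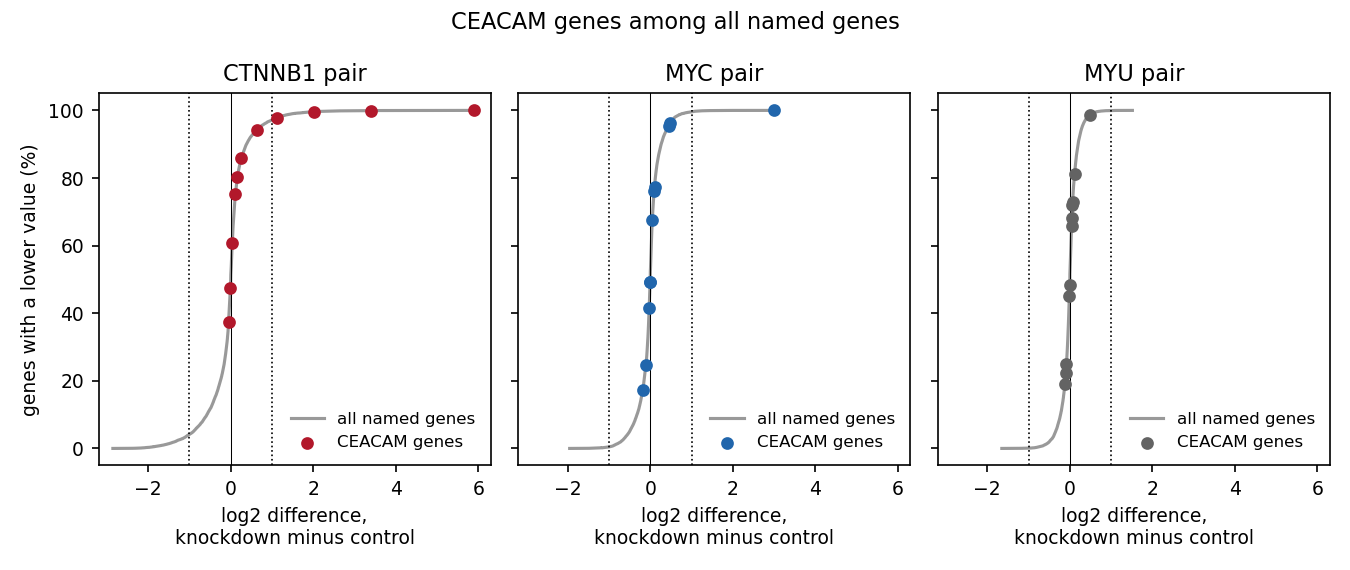
Cumulative distribution of log2 differences, knockdown minus matched control, over 14812 named genes (grey line; y axis, percent of genes with a lower value) with the 11 CEACAM genes as points, for the CTNNB1, MYC and MYU pairs; dotted lines mark 2-fold. In the CTNNB1 pair 4 members sit at the upper end, in the MYC pair CEACAM7 stands apart at 2.995, and in the MYU pair the members lie on the steep part of the line with CEACAM7 above the rest at 0.48.

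Set side by side on these arrays, the 4 members 2-fold higher with CTNNB1 siRNA had unequal proportions between the CTNNB1 and MYC pairs. The log2 difference with CTNNB1 siRNA was above that with MYC siRNA by 3.29 for CEACAM1, 2.90 for CEACAM7, 1.53 for CEACAM6 and 0.66 for CEACAM5. The difference of the MYC pair was 50.8% of that of the CTNNB1 pair for CEACAM7, 40.4% for CEACAM5, 24.0% for CEACAM6 and 3.05% for CEACAM1, as shares of log2 values. CEACAM1 thus came next after CEACAM7 in the CTNNB1 pair, and behind CEACAM6 and CEACAM5 in the MYC pair. Because both pairs may share a control array, these values were not tested against each other. MYC itself was lower in the CTNNB1 pair than in the MYC pair, and its part in these values was not tested.

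The genes with the most similar values differed from member to member. Likeness was measured as the Euclidean distance over the 3 differences, among all 14812 genes, where a smaller distance means closer values. CEACAM6 lay nearest to the keratin gene KRT19 (distance 0.08), with differences of 2.09, 0.45 and 0.08 for CTNNB1, MYC and MYU siRNA, then to NTN4, a netrin gene of the extracellular matrix, at 0.08 and to CYBRD1, a ferric reductase gene, at 0.18. CEACAM1 lay nearest to GUCA2B (0.21), the uroguanylin precursor gene, with 3.60, 0.13 and 0.11, then to the trefoil peptide gene TFF1 at 0.52 and TRANK1 at 0.63. CEACAM5 lay among many genes of like values, the nearest being NAB1 (0.07), a corepressor of EGR factors, the receptor gene GPR39 (0.07) and SH3GLB1 (0.10). CEACAM7 had no close neighbour. It was the highest of all genes in the CTNNB1 and MYC pairs, and large distances come with such extreme values, so they are no separate result. SLPI, a secreted protease inhibitor gene, came nearest at a distance of 2.61, with differences of 3.49, 1.98 and 0.38. KRT20 at 2.67, FER1L6 at 2.94, MUCL3 at 3.04 and GUCA2A at 3.15 came next. With 3 values per gene, such distances describe these arrays and say nothing of shared control.

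CEACAM genes lie in a cluster on chromosome 19, and the order of the genes was read from the gene table of GRCh38.p14. Among measured genes CEACAM21, CEACAM4, CEACAM7, CEACAM5, CEACAM6 and CEACAM3 are consecutive, with no other measured gene between them. In the CTNNB1 pair their differences along this row were 0.16, -0.01, 5.90, 1.11, 2.01 and 0.26. The 3 higher genes of the row were thus direct neighbours, flanked on either side by members within 2-fold. The next measured genes after CEACAM3, LYPD4 and DMRTC2, had differences of -0.06 and 0.20. CEACAM1 lies 21 measured genes beyond CEACAM7, next to CEACAM8, and CEACAM20, CEACAM19 and CEACAM16 are farther along.

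Of the 546 other genes whose start lies between the first and the last CEACAM gene of the table, 242 were measured. With CTNNB1 siRNA 9 of these were 2-fold higher and 2 lower, with a median of 0.00, where 2.8% of all genes were higher and 4.14% lower. The higher ones were the fucosyltransferase gene FUT2 (2.19), the small GTPase gene RRAS (2.14), the kallikrein genes KLK10 (1.78) and KLK11 (1.53), ETHE1 (1.74), a mitochondrial sulfur dioxygenase gene, EHD2 (1.41), NECTIN2 (1.35), LYPD3 (1.19) and VASP (1.07). The lower ones were TOMM40 (-1.38), a channel of the mitochondrial import machinery, and RUVBL2 (-1.28). With MYC siRNA KLK7 was lower (-1.46) and 0 were higher, where 0.857% of all genes were 2-fold apart. With MYU siRNA 0 of 242 were 2-fold apart, against 0.155% of all genes. The last CEACAM gene of the table, CEACAM18, is not measured, and CEACAM16 is the last measured member in this order. Of the 9 higher neighbours LYPD3 and ETHE1 lie before CEACAM16, and the others lie beyond it. The share of higher genes was near that of all genes and is no result about the region.

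The PSG genes, which encode the pregnancy-specific glycoproteins of the placenta, belong to the same gene family and lie between CEACAM8 and CEACAM20. None of the 10 measured PSG genes was 1.5-fold apart in any pair, where 16.2%, 5.79% and 1.88% of all genes were in the CTNNB1, MYC and MYU pairs. With only 10 genes these counts are no result about the PSG genes. Their medians were -0.02 with CTNNB1, -0.03 with MYC and -0.01 with MYU siRNA. PSG4 had the value farthest from 0 at -0.30 with CTNNB1 siRNA, followed there by PSG2 (-0.07), PSG3 (-0.05) and PSG5 (-0.03). With MYC siRNA the 4 farthest from 0 were PSG6 (-0.15), PSG8 (0.11), PSG5 (-0.11) and PSG4 (-0.10), and with MYU siRNA they were PSG5 (0.11), PSG4 (0.09), PSG8 (-0.08) and PSG11 (0.07).

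**Figure D3:**
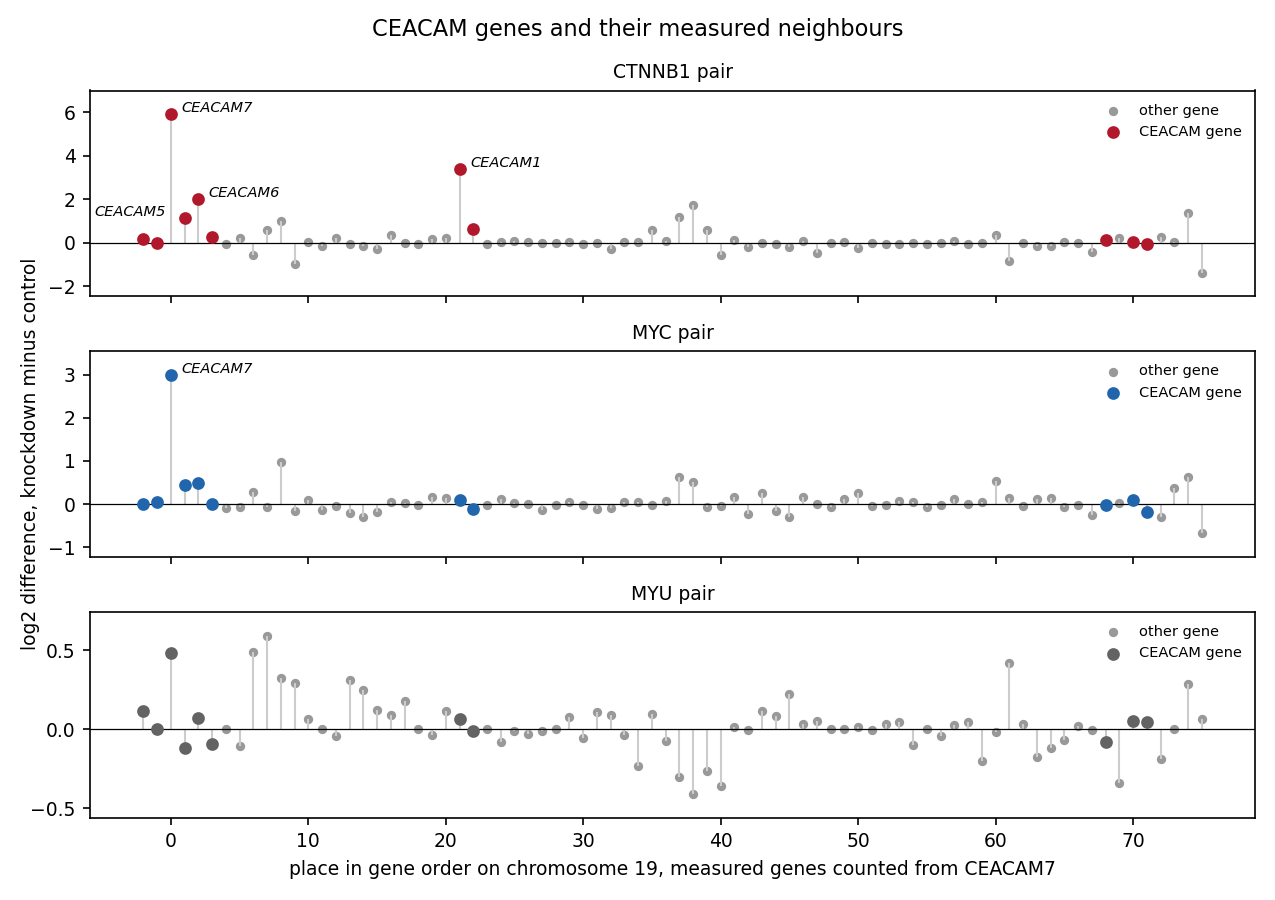
Log2 difference, knockdown minus matched control (y axis, scaled separately in each panel), of CEACAM genes (coloured) and other measured genes (grey) in their order along chromosome 19, counted in measured genes from CEACAM7 (x axis), for the CTNNB1, MYC and MYU pairs. CEACAM7, CEACAM5 and CEACAM6 stand side by side in the CTNNB1 pair, with CEACAM1 at place 21, while most genes around them lie near 0.

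The starts of the members were then compared, since 9 of the 11 genes have a listed window of 250 bases before to 50 after the start, CEACAM21 with 2 of them. The CEACAM7 window was 81.4% identical to that of CEACAM5, 81.3% to that of CEACAM6 and 73.4% to that of CEACAM1. It was also 76.6% identical to the second window of CEACAM21, 69.9% to CEACAM3, 69.8% to CEACAM4 and 60.3% to CEACAM8, and 47.3% to CEACAM20. Against 3 PSG genes with a window on the chromosome the median identity was 62.1% and the highest 62.7%, above that of CEACAM8. Against 1496 genes of chromosome 19 outside the CEACAM and PSG families the median was 48.8% and the highest 57.7%. The 3 windows most similar to that of CEACAM7 thus belonged to CEACAM5 and CEACAM6, which were 2-fold higher with CTNNB1 siRNA, and to CEACAM21, which was not.

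**Figure D4:**
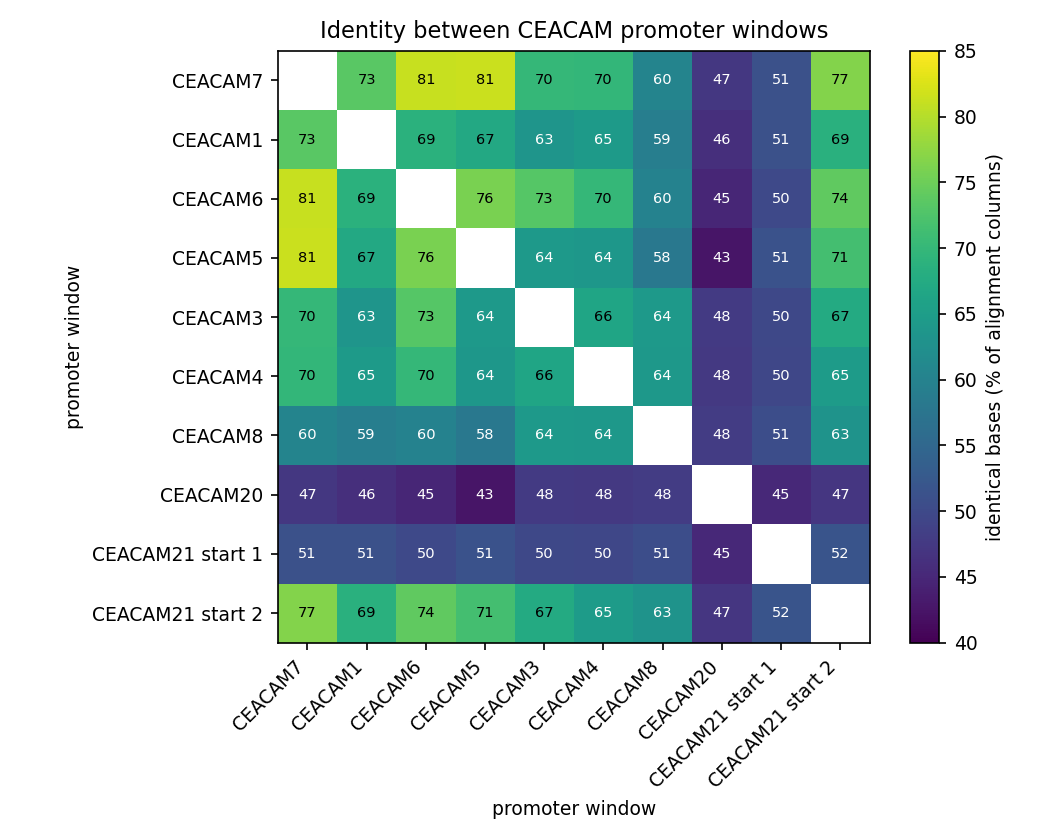
Identical bases as a percentage of alignment columns between the promoter windows of 9 CEACAM genes, CEACAM21 having 2 windows; each cell is 1 pair of windows. The brightest cells are those of CEACAM7 with CEACAM5 (81.4%) and with CEACAM6 (81.3%). CEACAM7 with the second window of CEACAM21 (76.6%) and CEACAM5 with CEACAM6 (75.9%) follow. CEACAM20 and the first window of CEACAM21 lie near the level of unrelated genes of the chromosome.

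In the windows above, CTTTGA on either strand was found in CEACAM7, starting 163 bases before the transcription start, in CEACAM1 at 155 bases and in CEACAM4 at 160 bases, in each as TCAAAG on the strand of the gene. It was also found in CEACAM20 and in both windows of CEACAM21, making 6 of 10 windows, against 12.9% of 35116 windows of all genes. CEACAM5 and CEACAM6, both 2-fold higher with CTNNB1 siRNA, do not hold these letters, and CEACAM4, CEACAM20 and CEACAM21, which were within 2-fold, do. The E-box CACGTG was found in CEACAM5, 46 bases before the start, and in CEACAM6, 45 bases before it, and in no other of the 10 windows, against 7.26% of all windows. TTTATG, a core bound by CDX factors, was found in the second window of CEACAM21 only, against 10.6% of all windows, and GATAAG, a core bound by GATA factors, in 0 of 10, against 6.36%. None of these motifs overlapped another in the family windows. The windows share ancestry, so matches at like positions are not independent, and a match is not a binding site.

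The stretch around the E-box is shown for the 4 higher members, because the MYC pair separated CEACAM7 from CEACAM5 and CEACAM6. Capitals mark the letters that align with the E-box of CEACAM5, and the runs are at chr19:41688300-41688323 for CEACAM7, chr19:42528508-42528529 for CEACAM1, chr19:41755476-41755499 for CEACAM6 and chr19:41708571-41708594 for CEACAM5, on the strands given above.
CEACAM7: cccctggacCATGTGatcttggaa
CEACAM1: cccagcaCACATGatcagacaa
CEACAM6: cccatgaccCACGTGaccctggga
CEACAM5: cccatgaccCACGTGatgctgaga

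CEACAM7, with the highest value of all genes in the MYC pair, and CEACAM1, at 0.10 in that pair, do not hold CACGTG in this stretch. CEACAM5 and CEACAM6, which hold it, had 0.45 and 0.48. The aligned letters are CATGTG in CEACAM7 and CACATG in CEACAM1, each being the other read on the opposite strand. Both are other forms of an E-box. Only CACGTG was searched, such other forms were not, and binding was not tested.

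Genes known to work with CEACAM proteins were examined from lists. Of 32 genes for binding partners and signalling 18 were measured, and with CTNNB1 siRNA 1 was 2-fold higher, 1 lower and 16 within 2-fold, with a median of 0.20. Over all genes 2.8% were higher and 4.14% lower, and 1 of 18 either way is near these shares and no result about the list. S100A10, a partner of annexin A2, was the higher one at 1.32 and also at 1.01 with MYC siRNA, while ANXA2 itself had 0.74 and -0.20. HNRNPM, which has been described as a receptor for CEACAM5 on macrophages, was lower at -1.09, and PXN, the focal adhesion adaptor paxillin, had 0.99. In the MYC pair HNRNPM had -0.57, GRB2, a signalling adaptor, -0.63 and the receptor gene EGFR -0.48. With MYU siRNA 0 of 18 were 2-fold apart, against 0.155% of all genes, which is no result about the list. In that pair ANXA2 had -0.48, S100A10 -0.28, PXN 0.26 and EGFR -0.26. Of the 28 genes for making and attaching GPI anchors only 6 were measured and 0 were 2-fold apart in any pair, against 6.94% of all genes in the CTNNB1 pair, a share at which 0 of 6 is no result about this list. In the CTNNB1 pair MPPE1 had 0.70, PGAP1 -0.66, PGAP2 -0.56 and PGAP3 0.39, all of them genes that remodel the anchor.

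Of 20 transcription factor genes linked to CEACAM promoters 14 were measured, and 0 were 2-fold apart in any pair, against 6.94%, 0.857% and 0.155% of all genes in the CTNNB1, MYC and MYU pairs, shares at which 0 of 14 is no result about these factors. In the CTNNB1 pair the farthest from 0 were KLF4 (0.85), SMAD3 (0.75), which mediates TGF-beta signals, KLF5 (0.62) and SP3 (-0.43). In the MYC pair CDX1, an intestinal homeobox gene, had -0.40, SP1 -0.40, SOX9 -0.40 and USF1, an E-box binding factor, 0.29. With MYU siRNA USF1 had 0.33, SOX9 0.24, KLF5 -0.22 and NFKB1 -0.21.

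CEACAM7 and its relatives were set beside other genes of mature colonocytes and enterocytes, of which 29 of 45 were measured. With CTNNB1 siRNA 15 of these were 2-fold higher and 0 lower, with a median of 1.02, against 2.8% of all genes higher, 4.14% lower and a median of 0. GUCA2A had 5.46, KRT20, a keratin of differentiated epithelium, 4.39, EMP1 3.61 and GUCA2B 3.60, all above CEACAM1 at 3.40, while CA4 (-0.18), APOA1 (-0.13) and BEST4 (-0.12) were lowest. With MYC siRNA CDHR5, a brush border cadherin, had 1.45 and KRT20 1.16, so that 2 of 29 were 2-fold higher and 0 lower, with a median of 0.01, against 0.412% and 0.446% of all genes. PHGR1 was the lowest of the list in that pair at -0.54, and GUCA2A had -0.10. With MYU siRNA 0 of 29 were 2-fold apart, against 0.155% of all genes, which is no result about the list. The median there was 0.05, and the values farthest from 0 were those of KRT20 (-0.73), DPP4 (0.57), CDHR5 (-0.48) and EMP1 (-0.46).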

How the data were processed

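Total RNA of 6 LS180 samples was prepared with TRIsure and labelled with biotin for Affymetrix arrays, per the labels' protocols. How background, normalization and probe summarisation were handled is not stated. The authors deposited log2 values, the base being assumed, that they had centred: the 2 arrays of a pair sum to 0 within 1e-06.

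The difference knockdown minus control was taken per probe set and averaged per gene. Of 44629 probe sets, 15835 have 1 gene symbol on the platform list and 28794 are unlisted. All identifiers matched the gene table of GRCh38.p14, giving 14812 genes. Genes were counted at a fold of 2, with 1.5 as an alternative. With 1 array a group no test was run.

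The members and the 9 gene lists were chosen with earlier results of these data known. Named were every member, up to 4 list members per pair with the largest absolute difference, neighbours at 2-fold, and the 5 nearest genes of CEACAM7 and the 3 nearest of each other 2-fold member. LYPD4, DMRTC2, NRCAM and some list members in further pairs were named after their values were seen. Alternatives were probe set choice, centring on array medians, all probe sets and protein-coding genes.

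Promoter windows came from RefSeq. Windows of 300 bases were aligned globally (match 2, mismatch -1, gap opening -3, gap extension -0.5). This alignment was added after the values were seen, in the place of a planned protein comparison for which no sequences were used here. Calculations were tested on simulated data. Python 3.11.15, numpy 2.4.6, pandas 2.3.3, Biopython 1.88 and matplotlib 3.10.9 were used.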

Additional observations from a re-analysis of the deposited data

How the results depend on the processing

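The 33 member values kept their sign where called and moved by at most 0.00773 when each array was centred on its median, and the choice of probe set cannot change them, since each member has 1. The counts of members at 2-fold stayed at 4 with CTNNB1, 1 with MYC and 0 with MYU siRNA under these settings. At 1.5-fold they were 5, 1 and 0. The share of features 2-fold apart in the CTNNB1 pair was 3.93% over all probe sets, named or not, against 6.94% of named genes. At 1.5-fold, in either direction, 16.2% of all genes were apart with CTNNB1, 5.79% with MYC and 1.88% with MYU siRNA. The CTNNB1 pair had 10 of 42 other immunoglobulin adhesion genes, 2 of 6 GPI anchor genes, 4 of 18 binding partners, 3 of 14 promoter factors, 2 of 17 leukocyte markers and 11 of 15 goblet genes apart. The MYC pair had 4 of the adhesion genes, 2 binding partners and 1 goblet gene apart, and the MYU pair 1 colonocyte gene, 4 adhesion genes, 2 leukocyte markers and 1 goblet gene. Quantile normalization and other control arrays were not run, since the centred values hold no levels, and the planned comparison of protein ends was not run, since no protein sequences were used here. No paired analysis was possible because each group has 1 array and a pair keeps only the difference of its arrays. Arrays could not be left out in turn. The signal over background of each probe set is unknown, so low values cannot be told from low signal.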

Other observations

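Of 54 listed genes of other adhesion molecules of the immunoglobulin superfamily 42 were measured, and with CTNNB1 siRNA 5 were 2-fold higher and 1 lower, with a median of 0.01, against 2.8% of all genes higher, 4.14% lower and a median of 0. The lower one was NRCAM (-1.05), a neural adhesion molecule. The higher ones were GPA33 (1.02), an antigen of intestinal epithelium, VSIG1 (1.39), a junction protein of stomach epithelium, NECTIN2 (1.35), a nectin of adherens junctions, NPTN (1.17) and MPZL3 (1.15), of which all but GPA33 lay between CEACAM5 at 1.11 and CEACAM6 at 2.01. With MYC siRNA 0 of 42 were 2-fold apart, against 0.857% of all genes, and NPTN (0.90), ALCAM (-0.82), MPZL3 (0.79) and NECTIN2 (0.64) were farthest from 0. With MYU siRNA 0 were 2-fold apart as well, against 0.155% of all genes, and GPA33 (-0.80), VSIG10 (-0.78), ICAM1 (0.67) and BSG (-0.59) were farthest from 0. In the MYC and MYU pairs 0 of 42 at these shares is no result about the list.

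Genes of goblet and other secretory cells had 7 of 15 measured members 2-fold higher and 0 lower with CTNNB1 siRNA, with a median of 0.89, against 2.8% of all genes higher and 4.14% lower. Among the higher ones were the trefoil peptide genes TFF2 (4.36) and TFF1 (3.18), BCAS1 (2.25) and SPDEF (2.24), which encodes a regulator of goblet cell maturation, while ATOH1, a transcription factor of the secretory lineage, was the lowest of the list at -0.44. With MYC siRNA 0 of 15 were 2-fold apart, against 0.857% of all genes, and TFF3 had the value farthest from 0, at 0.82. With MYU siRNA 0 of 15 were 2-fold apart, against 0.155% of all genes. At these shares 0 of 15 is no result about the list. The values farthest from 0 with MYU siRNA were those of ATOH1 (0.63), TFF1 (0.50) and AGR2 (-0.44). Of 5 measured fibroblast and endothelial markers 1, LUM, was 2-fold higher with CTNNB1 siRNA (2.78), where 2.8% of all genes were. DCN (0.01), THY1 (-0.04), VIM (-0.04) and VWF (0.02) lay near 0. With MYC and MYU siRNA 0 of 5 were 2-fold apart, against 0.857% and 0.155% of all genes. With so few markers these counts are no result about the list.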
